A study of Mus musculus with 27 samples.

Results

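The responses of mouse lung to the doses of thoracic X-rays that the study calls lethal were compared between a radiation-sensitive and a radiation-resistant inbred strain. The sensitive strain was C57L/J, given 12.5 Gy, and the resistant strain was C57BL/6J, given 15 Gy. Each response was the log2 intensity of irradiated lungs minus that of sham-irradiated lungs of the same strain. The comparison used 12 of the 27 arrays of the series, with 3 arrays in each of 4 groups: C57L/J 12.5 Gy, C57L/J 0 Gy, C57BL/6J 15 Gy and C57BL/6J 0 Gy. All mice were female, 10 to 12 weeks old when irradiated, and were culled 24 hours later. The thorax alone was exposed (320 kVp, 67 cGy per min), and RNA was not pooled between mice. The question was which genes responded alike at the lethal dose of each strain and which did not. Strain and dose both differ between the responses, so in any difference between them the strain and the dose cannot be told apart.

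Ionizing radiation breaks DNA, and the breaks stabilize the transcription factor p53. p53 switches on genes that stop the cell cycle, repair DNA or start cell death, and cycling cells stop making the transcripts of replication and mitosis. Lymphocytes are among the most radiosensitive cells of the body.

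Each array measured 1 mouse, so p-values measure the spread between these mice. Values are log2 intensities of the Affymetrix Mouse Genome 430 2.0 array, so a difference of 1 is a 2-fold change, and levels are not compared between genes. The brightest probe set stood for each of 18194 genes. Single responses were tested with limma in each strain and called at an unadjusted p under 0.01. The mean of both responses was called at a Benjamini-Hochberg adjusted p under 0.05 (limma, 1 fit over the 12 arrays), and "rose" and "fell" refer to this call unless a strain is named. The difference of the responses is the change in C57L/J minus that in C57BL/6J.

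The lung epithelium was well represented on each array: the mean of 12 of its defining genes lay between 13.24 and 13.50 in C57L/J 12.5 Gy lungs, 13.38 and 13.59 in C57L/J 0 Gy lungs, 13.22 and 13.54 in C57BL/6J 15 Gy lungs, and 13.35 and 13.53 in C57BL/6J 0 Gy lungs. Skeletal muscle transcripts were high on 2 of the 12 arrays, replicates 2 and 3 of C57BL/6J 15 Gy. The mean of 20 skeletal muscle genes was 11.71 and 11.48 there, and 6.60 on replicate 1. It ran from 5.68 to 5.95 in C57L/J 12.5 Gy, 5.67 to 6.53 in C57L/J 0 Gy and 6.36 to 6.73 in C57BL/6J 0 Gy lungs. The myosin gene Myh1 read 5.98, 13.19 and 14.07 in C57BL/6J 15 Gy lungs, against 5.86, 5.01 and 5.05 in C57BL/6J 0 Gy lungs. Squamous epithelium genes were high on the same arrays, with means over 13 genes of 5.74, 8.33 and 8.99 in C57BL/6J 15 Gy lungs and 5.49 to 6.01 in C57BL/6J 0 Gy lungs. Fat genes were uneven in all 4 groups (means of 12 genes from 7.01 to 11.49). The mean of 6 thyroid and parathyroid genes was 9.33 on replicate 2 of C57BL/6J 15 Gy and at most 6.19 on the other 11 arrays. The mean of 5 genes of lymph node and spleen stroma was 8.63 on the same array, 7.08 on replicate 1 of C57L/J 12.5 Gy and at most 6.59 on the other 10. Among them Glycam1, a gene of lymph node venules named after its values were seen, read 10.52 on replicate 2 of C57BL/6J 15 Gy and at most 6.40 on the other arrays. Thymocyte genes were uneven in sham lungs, with means over 11 genes of 5.56 to 5.66 in C57L/J 12.5 Gy, 5.72 to 7.01 in C57L/J 0 Gy, 5.52 to 6.46 in C57BL/6J 15 Gy and 5.90 to 6.97 in C57BL/6J 0 Gy lungs. Results are given with both muscle-bearing arrays and, where it matters, without them, which leaves 1 array at 15 Gy that is assumed to vary like the other groups.

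**Figure D1:**
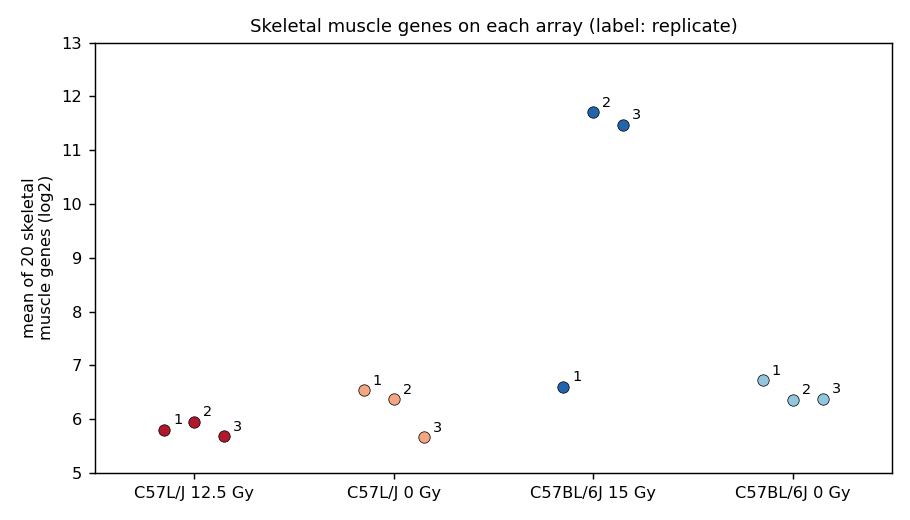
Mean log2 intensity of 20 skeletal muscle genes on each of the 12 arrays, by strain and dose; each point is 1 array and its label is the replicate number. Replicates 2 and 3 of C57BL/6J 15 Gy lie at 11.71 and 11.48, and the other 10 arrays between 5.67 and 6.73.

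In C57L/J lungs 822 genes (4.52% of those tested) were called after 12.5 Gy, 304 higher (1.67%) and 518 lower (2.85%). In C57BL/6J lungs 693 genes (3.81%) were called after 15 Gy, 289 higher (1.59%) and 404 lower (2.22%). After adjustment 94 genes passed in C57L/J and 12 in C57BL/6J. Single arrays and probe sets moved these splits. In C57BL/6J the calls were 241 higher and 219 lower without replicate 1 of 0 Gy, 219 and 218 without replicate 2 of 0 Gy, 417 and 335 without replicate 1 of 15 Gy, 264 and 225 with the most variable probe set and 291 and 284 with the mean of probe sets. In C57L/J 196 were higher without replicate 2 and 164 without replicate 3 of 12.5 Gy. The direction of change was largely shared. Of the 304 genes called higher in C57L/J, 271 (89.1%) were also higher in C57BL/6J, against 50.6% of all genes, and of the 518 called lower, 437 (84.4%) were also lower, against 49.4%. Of the 289 genes called higher in C57BL/6J, 226 (78.2%, against 48.0% of all genes) were higher in C57L/J, and 373 of the 404 called lower (92.3%, against 52.0%) were lower. No array entered both responses. The median change was smaller in the other strain than in the strain that made the call, whose values chose the genes. Genes called lower in C57L/J had a median of -0.875 there and -0.575 in C57BL/6J, and genes called higher in C57BL/6J had a median of 0.415 in C57L/J and 1.03 in C57BL/6J.

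In both strains 230 genes were called, 227 of them in the same direction (68 higher and 159 lower), which is 27.6% of the C57L/J calls and 32.8% of the C57BL/6J calls. The 3 that went opposite ways were Agtr2, Gm30853 and Timd2, all below a log2 intensity of 7 in every group. Irradiated and sham values did not overlap for 21.1% of genes between the C57L/J groups and for 20.8% between the C57BL/6J groups, and 6.84% (1245 genes) did not overlap in either strain and had the same direction. Another 101 genes (0.555%) did not overlap in either strain and went opposite ways.

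Across all 18194 genes the changes had a Pearson correlation of 0.21 and a Spearman correlation of 0.276, and 62.1% shared their sign. In 4 equal bins of the level of the gene, low to high, r was 0.0618, 0.394, 0.587 and 0.622. Over the 11847 genes with a mean of at least 7 it was 0.548, and 0.576 without the arrays with muscle transcripts. Genes are not independent and share their arrays, so these values describe the 12 arrays. The plot of both changes shows the axis of shared change and a group of muscle genes that moved on the C57BL/6J axis alone.

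**Figure D2:**
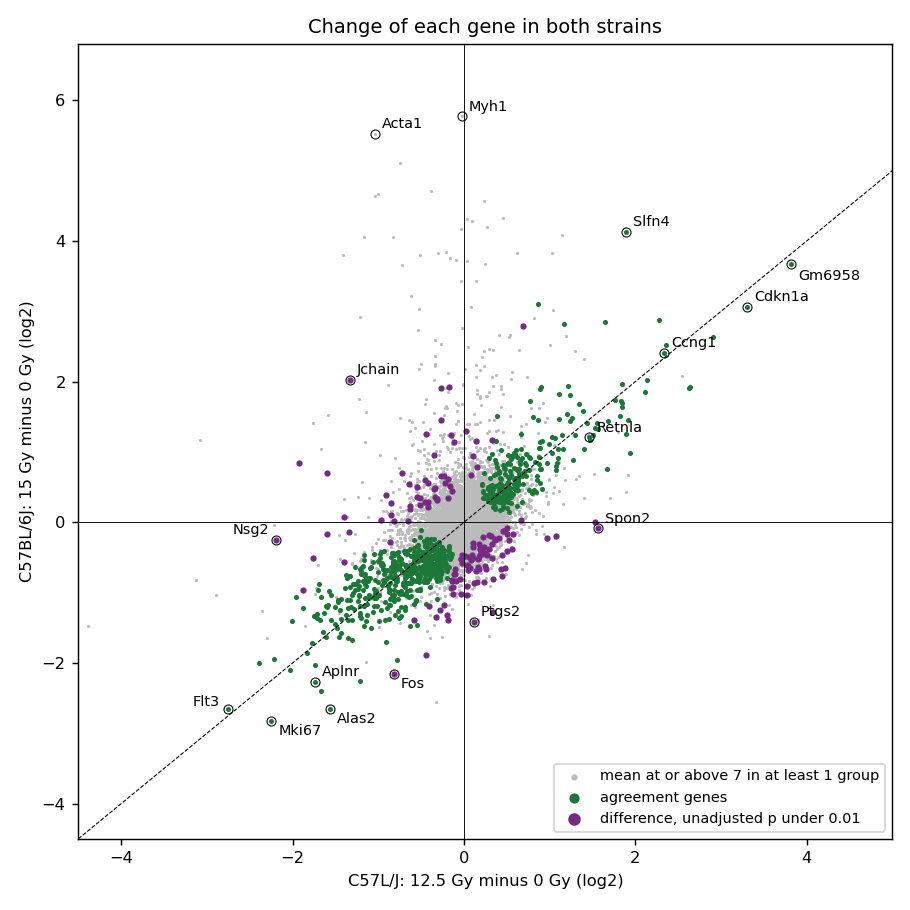
Change of each gene in C57L/J (12.5 Gy minus 0 Gy, horizontal) and in C57BL/6J (15 Gy minus 0 Gy, vertical), in log2 units, for genes with a mean of at least 7 in at least 1 group. Green points are the 731 genes that changed in the same direction in both strains by the rule in the text, purple points those whose difference had an unadjusted p under 0.01, and the dashed line marks equal change. Cdkn1a, Ccng1, Mki67 and Flt3 lie near the line, while Myh1 and Acta1 stand high on the C57BL/6J axis.

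The mean response held 945 genes, of which 324 rose (1.78% of those tested) and 621 fell (3.41%). In 932 of them both strains changed in the same direction. Without the arrays with muscle transcripts 105 genes rose (0.577%) and 272 fell (1.49%). Of the 945 genes, 316 passed again in that fit and all 945 kept their direction. Taking also genes whose values did not overlap in either strain, at a level of at least 7 in 1 group, left 731 agreement genes, 255 higher and 476 lower. Their median change was 0.54 in C57L/J and 0.63 in C57BL/6J for those that were higher, and -0.65 and -0.70 for those that were lower. In both strains 45 of the higher and 73 of the lower changed at least 2-fold. The values that chose these genes are the ones described here, so the counts are no independent measure of agreement.

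CBA/J, another inbred strain, had no part in choosing them. Its lungs irradiated with 12.5 or 15 Gy were set against its sham-irradiated lungs (9 arrays, 4 of them with muscle transcripts). Of the 255 higher genes 240 (94.1%) were also higher in irradiated CBA/J lungs, against 48.2% of the 12568 genes with a group mean of at least 7. Of the 476 lower genes 463 (97.3%) were also lower, against 51.8%. Of the higher genes 102 were called higher in CBA/J, against 2.79% of these 12568 genes, and 240 of the lower were called lower (50.4%, against 3.91%). CBA/J had 420 calls higher (2.31% of 18194) and 566 lower (3.11%). The opposite call was made for 1 gene.

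The counts of the gene lists below stand beside 1.78% of all genes that rose and 3.41% that fell in the mean response. For single strains the shares were 1.67% called higher and 2.85% lower in C57L/J. In C57BL/6J they were 1.59% and 2.22%. Genes of the p53 response led the rises. Of 40 measured genes of p53-driven arrest and feedback 22 rose, 21 were called higher in C57L/J lungs and 16 in C57BL/6J lungs, and the median change was 0.71 in C57L/J and 0.73 in C57BL/6J, beside -0.01 and 0.01 over all genes. Without the arrays with muscle transcripts 19 of them rose. Cdkn1a encodes p21, the cyclin-dependent kinase inhibitor through which p53 halts the cell cycle. It read 13.33, 13.15 and 13.52 in C57L/J 12.5 Gy lungs, against 10.35, 9.85 and 9.91 in C57L/J 0 Gy lungs. In C57BL/6J it read 13.14, 12.78 and 12.94 at 15 Gy and 9.69, 10.26 and 9.73 at 0 Gy. Irradiated and sham lungs were far apart in both strains, without overlap, and the mean rise was 3.18 ± 0.14 (SE, limma adjusted p = 5.61e-06).

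Ccng1, cyclin G1, a p53 target that feeds back on p53 through MDM2, read 13.36, 13.38 and 13.40 in C57L/J 12.5 Gy lungs, against 10.85, 11.08 and 11.19 in C57L/J 0 Gy lungs. In C57BL/6J it read 13.29, 13.42 and 13.53 at 15 Gy, against 11.07, 10.93 and 11.01 at 0 Gy. The mean rise was 2.37 ± 0.08 (SE, limma adjusted p = 1.2e-06). The irradiated lungs of both strains fell in the same narrow range, and the difference of the changes was -0.07 (95% interval -0.42 to 0.28). Phlda3, a p53-induced inhibitor of AKT, rose by 2.14 in C57L/J and 2.02 in C57BL/6J, with irradiated values of 12.45 to 12.60 and 12.08 to 12.33. Eda2r, a p53-induced receptor for ectodysplasin A2, rose by 2.63 in C57L/J and 1.92 in C57BL/6J. Ddias, an inhibitor of cell death induced by DNA damage, rose by 2.62 and 1.91 in the same order of strains, and Dglucy, the D-glutamate cyclase gene, by 2.11 and 1.86. The differences of these 4 genes had unadjusted p-values (limma) of 0.527 for Phlda3, 0.064 for Eda2r, 0.0646 for Ddias and 0.302 for Dglucy.

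Of 21 measured genes of the p53 death pathway 6 rose, beside 1.78% of all genes. Bbc3, which encodes the BH3-only protein PUMA, read 9.54 to 9.84 in C57L/J 12.5 Gy lungs and 8.30 to 8.59 in C57L/J 0 Gy lungs. It read 8.85 to 9.77 in C57BL/6J 15 Gy lungs and 7.65 to 8.12 in C57BL/6J 0 Gy lungs, and its mean rise was 1.34 ± 0.16 (SE, limma adjusted p = 0.0016). Pmaip1, encoding the related NOXA, rose by 1.07 ± 0.12 (SE, limma adjusted p = 0.0015), with changes of 1.09 in C57L/J and 1.04 in C57BL/6J. Both are mitochondrial triggers of apoptosis, and in neither did irradiated and sham lungs overlap.

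Among the genes with the largest shared rises was Gm6958, a predicted gene without an assigned role, with 9.73 to 11.19 in C57L/J 12.5 Gy lungs and 5.52 to 7.33 in C57L/J 0 Gy lungs, and 10.42 to 11.49 in C57BL/6J 15 Gy lungs and 6.85 to 7.69 in C57BL/6J 0 Gy lungs. Its mean rise was 3.75 ± 0.37 (SE, limma adjusted p = 0.000718). Ces2e, a carboxylesterase whose probes may also bind related esterases, rose by 2.91 in C57L/J and 2.63 in C57BL/6J. Celf5, an RNA-binding protein gene, rose by 2.27 in C57L/J and 2.87 in C57BL/6J. Rgs5, a regulator of G protein signalling found in pericytes, rose by 1.84 and 1.96 in the same order. Irradiated values of these genes lay above sham values without overlap in both strains, as the rule for agreement genes required. Over all genes 6.84% did not overlap in either strain and had the same direction.

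**Figure D3:**
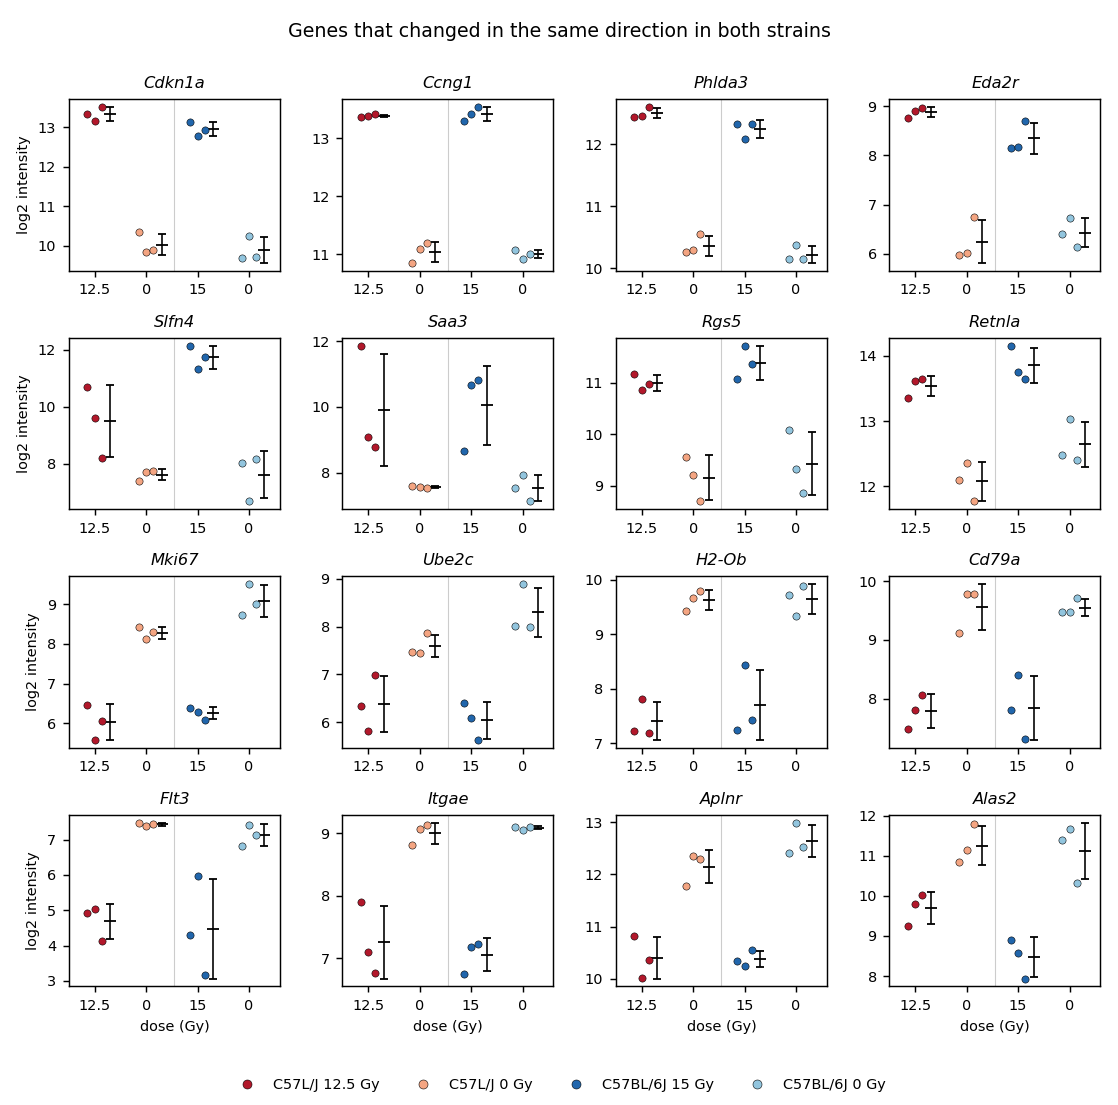
Log2 intensity on each of the 12 arrays for 16 genes that changed in the same direction in both strains, in irradiated and sham-irradiated lungs of C57L/J (12.5 and 0 Gy) and C57BL/6J (15 and 0 Gy); bars give the mean and SD of 3 lungs. Cdkn1a, Ccng1, Phlda3 and Eda2r rose in both strains, Mki67, Cd79a and Aplnr fell in both, and Slfn4 stands higher in C57BL/6J 15 Gy than in C57L/J 12.5 Gy lungs.

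Part of the transcripts of dividing cells fell. Of 65 measured genes of mitosis 24 fell, and 2, Tpx2 (0.42) and Ncaph (0.91), which act on the spindle and on mitotic chromosomes, rose. They do not share the direction of the list. In C57L/J 16 were called lower and in C57BL/6J 18, with medians of -0.44 and -0.56. Without the arrays with muscle transcripts 16 fell. Of 48 genes of DNA replication 12 fell, with medians of -0.265 in C57L/J and -0.387 in C57BL/6J. With only the 15 Gy array without muscle transcripts the C57BL/6J median was -0.399. Mki67, which encodes the proliferation antigen Ki-67, read 6.46, 5.58 and 6.06 in C57L/J 12.5 Gy lungs, against 8.42, 8.13 and 8.30 in C57L/J 0 Gy lungs. In C57BL/6J it read 6.39, 6.29 and 6.09 at 15 Gy, against 8.73, 9.51 and 9.01 at 0 Gy. Irradiated lungs of the strains overlapped each other, sham lungs of C57BL/6J stood above those of C57L/J, and the mean fall was -2.54 ± 0.17 (SE, limma adjusted p = 0.000112). Ube2c, the ubiquitin-conjugating enzyme of the anaphase-promoting complex, changed by -1.21 in C57L/J and -2.26 in C57BL/6J (mean -1.74, limma adjusted p = 0.00403). Rrm2, a subunit of ribonucleotide reductase, changed by -1.15 and -1.40 in the same order, and Tk1, thymidine kinase, by -2.61 and -2.40 at levels below 7.

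Promoters of mitotic genes often carry the cell cycle element TTTGAA near the transcription start and CCAAT boxes above it, through which the DREAM complex, NF-Y and, indirectly, p53 are known to act. Both motifs were searched in either orientation, so that TTTGAA also reads as TTCAAA and, for the other motif, CCAAT also reads as ATTGG, in the 250 bases before each RefSeq start (GRCm38.p6). TTTGAA was found for 10 of the 20 mitosis genes that fell and have a promoter in the table (50.0%), for 12 of the 35 other members (34.3%) and for 14.1% of 14453 genes. CCAAT was found for 80.0%, 65.7% and 39.4%. A match describes the letters and is not evidence of binding. The sequences of 4 of the genes that fell are shown up to the base before the start, with both motifs in capitals, because in them the paired motifs are close together or repeated. They lie at chr7:135716380-135716577 (Mki67, minus strand), chr2:164769691-164769928 (Ube2c, plus strand), chr7:80294404-80294475 (Prc1, plus strand) and chr19:37376327-37376381 (Kif11, plus strand).
Mki67: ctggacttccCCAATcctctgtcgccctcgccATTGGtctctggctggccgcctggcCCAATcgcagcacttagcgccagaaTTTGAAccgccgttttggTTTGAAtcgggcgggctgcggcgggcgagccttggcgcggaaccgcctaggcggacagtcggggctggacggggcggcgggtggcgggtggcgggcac
Ube2c: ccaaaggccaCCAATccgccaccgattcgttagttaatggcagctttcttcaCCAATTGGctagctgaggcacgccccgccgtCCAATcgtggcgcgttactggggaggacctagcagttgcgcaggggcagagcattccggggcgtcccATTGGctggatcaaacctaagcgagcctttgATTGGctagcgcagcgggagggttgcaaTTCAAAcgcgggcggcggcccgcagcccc
Prc1: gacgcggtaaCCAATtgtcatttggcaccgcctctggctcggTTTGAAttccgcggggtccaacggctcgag
Kif11: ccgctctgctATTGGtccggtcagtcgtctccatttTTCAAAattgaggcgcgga
Prc1, a microtubule bundler of the central spindle, changed by -0.89 ± 0.14 and Kif11, a spindle motor, by -0.87 ± 0.13 in the mean response (SE, limma adjusted p = 0.0065 and 0.00632).

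B cell genes fell together in both strains. Of 30 measured genes 24 fell, 22 were called lower in C57L/J lungs and 18 in C57BL/6J lungs, and the medians were -1.30 and -1.24. All 30 changed in the same direction in both strains, and without the arrays with muscle transcripts 23 fell. Cd79a, a signalling chain of the B cell receptor, read 7.48, 7.81 and 8.06 in C57L/J 12.5 Gy lungs, against 9.11, 9.79 and 9.79 in C57L/J 0 Gy lungs. It read 7.80, 8.40 and 7.31 in C57BL/6J 15 Gy lungs, against 9.47, 9.47 and 9.71 in C57BL/6J 0 Gy lungs, and the mean fall was -1.75 ± 0.20 (SE, limma adjusted p = 0.00157). Ms4a1, encoding CD20, changed by -1.71 in C57L/J and -1.30 in C57BL/6J, Blk, a B cell kinase, by -1.64 and -1.56, and Bcl11a, a transcription factor of B cell and dendritic cell development, by -1.83 and -1.86. In bulk lung, fewer B cells and less RNA per B cell cannot be told apart, and the same holds for each cell type below.

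Of 12 genes of antigen presentation by MHC class II 9 fell, with medians of -0.80 in C57L/J and -1.04 in C57BL/6J. The C57BL/6J median was -0.77 with only the 15 Gy array without muscle transcripts. H2-Ob, a chain of the B cell regulator H2-O, read 7.23, 7.82 and 7.19 in C57L/J 12.5 Gy lungs, against 9.43, 9.66 and 9.79 in C57L/J 0 Gy lungs. In C57BL/6J it read 7.25, 8.44 and 7.42 at 15 Gy, against 9.72, 9.34 and 9.88 at 0 Gy. Its partner H2-Oa changed by -1.62 and -1.63, and Ciita, the master activator of these genes, by -1.17 in C57L/J and -1.47 in C57BL/6J. The abundant chains H2-Aa and H2-Ab1 changed by -0.62 and -0.96 in the mean response.

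Dendritic cell genes fell as well, 12 of 22, with medians of -0.58 in C57L/J and -0.76 in C57BL/6J. Flt3, the receptor on which dendritic cells and their progenitors depend, read 4.91, 5.02 and 4.12 in C57L/J 12.5 Gy lungs, against 7.48, 7.38 and 7.44 in C57L/J 0 Gy lungs. It read 4.31, 5.96 and 3.15 in C57BL/6J 15 Gy lungs, against 6.83, 7.43 and 7.14 in C57BL/6J 0 Gy lungs, and the mean fall was -2.71 ± 0.40 (SE, limma adjusted p = 0.00555). The irradiated values lay below all sham values of the same strain, with a wide spread at 15 Gy. Hepacam2, an adhesion protein gene among the 12 largest shared falls, changed by -2.03 in C57L/J and -2.10 in C57BL/6J. Ccr7, the receptor for migration to lymph nodes that T cells share, changed by -1.43 in C57L/J and -1.08 in C57BL/6J.

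Genes of T cells and natural killer cells were tested next. Of 41 T cell genes 24 fell, 27 were called lower in C57L/J lungs and 14 in C57BL/6J lungs, and the medians were -1.14 and -0.75. Without the arrays with muscle transcripts 16 fell. Bcl11b, a transcription factor that fixes T cell identity, read 7.24, 7.79 and 7.16 in C57L/J 12.5 Gy lungs, against 8.86, 9.11 and 9.86 in C57L/J 0 Gy lungs. It read 7.05, 7.92 and 7.80 in C57BL/6J 15 Gy lungs, against 8.82, 8.87 and 8.75 in C57BL/6J 0 Gy lungs, and its mean fall was -1.55 ± 0.21 (SE, limma adjusted p = 0.00364). Itgae, which encodes the integrin CD103 of mucosal T cells and some dendritic cells, changed by -1.74 in C57L/J and -2.03 in C57BL/6J. Of 23 genes of natural killer and cytotoxic cells 11 fell, with medians of -0.86 in C57L/J and -0.57 in C57BL/6J. Of them 8 were called lower in C57L/J lungs and 5 in C57BL/6J lungs. With only the 15 Gy array without muscle transcripts the C57BL/6J median was -0.52. Ccl5, a chemokine of cytotoxic lymphocytes, changed by -1.61 in C57L/J lungs and -1.19 in C57BL/6J lungs, and Gzma, encoding granzyme A, by -1.20 and -0.69. The adjusted p of Gzma (limma, 0.0421) exceeded 0.05 when any of 10 single arrays was left out, up to 0.0975 without replicate 3 of C57L/J 0 Gy.

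Thymocyte genes, which could come from thymus beside the lung, were uneven across the same arrays. Of 11 measured 2 fell in the mean response, Satb1 and Themis, both also active in mature T cells, and 0 without the arrays with muscle transcripts, and 3 were called lower in C57L/J and 2 in C57BL/6J. Rag1, the recombinase of lymphocyte precursors, read 3.47, 0 and 0 in C57L/J 12.5 Gy lungs, against 0.69, 2.42 and 7.48 in C57L/J 0 Gy lungs. It read 0, 4.77 and 3.35 in C57BL/6J 15 Gy lungs, against 6.91, 2.79 and 7.32 in C57BL/6J 0 Gy lungs, so that 3 sham arrays and no irradiated array reached 6. Without these 3 arrays, a choice made after seeing the data that leaves 1 array of C57BL/6J 0 Gy, 82 genes (0.451%) fell in the mean response, among them 5 T cell genes, 1 natural killer and cytotoxic gene and 4 B cell genes (limma). The T cell medians were then -0.95 in C57L/J lungs and -0.79 in C57BL/6J lungs, and the B cell medians -1.22 and -1.06. The adjusted p of Bcl11b became 0.0591 and that of Itgae 0.0392 (limma).

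Myeloid genes moved the other way in part. Of 23 neutrophil genes 11 rose, 4 were called higher in C57L/J lungs and 11 in C57BL/6J lungs, and the medians were 0.47 and 0.86. On replicate 1 of C57BL/6J 15 Gy alone, the array without muscle transcripts, 13 were called higher (background 1.12%), and 4 rose in the mean response. S100a9, a subunit of calprotectin, read 12.23, 11.51 and 11.55 in C57L/J 12.5 Gy lungs, against 8.46, 11.36 and 10.52 in C57L/J 0 Gy lungs. It read 13.44, 11.89 and 12.53 in C57BL/6J 15 Gy lungs, against 10.36, 8.78 and 10.17 in C57BL/6J 0 Gy lungs. The sham lungs spread widely in both strains, and the mean rise was 2.25 ± 0.51 (SE, limma adjusted p = 0.0349, 0.094 without the arrays with muscle transcripts and up to 0.0822 when 1 of 9 single arrays was left out, the highest without replicate 1 of C57L/J 12.5 Gy). Clec4d, a C-type lectin of neutrophils and monocytes, rose in the mean response, with changes of 0.90 in C57L/J and 1.92 in C57BL/6J.

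Slfn4, a schlafen gene of activated myeloid cells, read 10.69, 9.61 and 8.20 in C57L/J 12.5 Gy lungs, against 7.38, 7.70 and 7.75 in C57L/J 0 Gy lungs. It read 12.14, 11.33 and 11.75 in C57BL/6J 15 Gy lungs, against 8.02, 6.67 and 8.15 in C57BL/6J 0 Gy lungs. All 3 C57BL/6J 15 Gy lungs stood above all 3 C57L/J 12.5 Gy lungs. The changes were 1.89 in C57L/J lungs and 4.13 in C57BL/6J lungs, and their difference of -2.24 (95% interval -4.09 to -0.39) had an unadjusted p of 0.022 (limma). Saa3, an acute-phase serum amyloid A made in lung, read 11.87, 9.08 and 8.78 in C57L/J 12.5 Gy lungs and 7.53 to 7.59 in C57L/J 0 Gy lungs. It read 8.66, 10.68 and 10.81 in C57BL/6J 15 Gy lungs and 7.12 to 7.92 in C57BL/6J 0 Gy lungs. Its adjusted p of 0.0368 (limma) became 0.247 without the arrays with muscle transcripts and exceeded 0.05 when any of 9 single arrays was left out, up to 0.0872 without replicate 2 of C57BL/6J 15 Gy.

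Interferon-stimulated genes rose in 10 of 37 cases, beside 1.78% of all genes, with medians of 0.32 in C57L/J and 0.35 in C57BL/6J. In C57L/J 2 were called higher and in C57BL/6J 9, beside 1.67% and 1.59% of all genes. Without the arrays with muscle transcripts 3 rose. Ifi27l2a, an interferon-induced mitochondrial protein gene, read 12.80, 12.13 and 11.15 in C57L/J 12.5 Gy lungs, against 10.77 to 11.05 in C57L/J 0 Gy lungs, and 12.85 to 13.44 in C57BL/6J 15 Gy lungs, against 10.97 to 11.59 in C57BL/6J 0 Gy lungs. Among 24 monocyte and interstitial macrophage genes 4 rose and 4 fell, beside 1.78% and 3.41% of all genes. Those that fell were Ccr2 (-1.30) and Cx3cr1 (-1.07), chemokine receptors of classical and patrolling monocytes, Treml4 (-1.03) and Nr4a1 (-0.96), on which patrolling monocytes depend. C1qb, a chain of complement C1q made by macrophages, rose in the mean response, with changes of 0.88 in C57L/J and 0.93 in C57BL/6J (limma adjusted p = 0.0179, 0.0505 without replicate 3 of C57L/J 0 Gy).

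Of 45 endothelial genes 13 fell, beside 3.41% of all genes, with medians of -0.19 in C57L/J lungs and -0.39 in C57BL/6J lungs. The C57BL/6J median was -0.12 with only the 15 Gy array without muscle transcripts. Aplnr, the apelin receptor of angiogenic endothelium, read 10.82, 10.03 and 10.37 in C57L/J 12.5 Gy lungs, against 11.78, 12.35 and 12.30 in C57L/J 0 Gy lungs. It read 10.35, 10.24 and 10.55 in C57BL/6J 15 Gy lungs, against 12.42, 12.99 and 12.53 in C57BL/6J 0 Gy lungs, a mean fall of -2.00 ± 0.17 (SE, limma adjusted p = 0.00033). Gpihbp1, which holds lipoprotein lipase on capillaries, had a mean fall of -1.02 (limma adjusted p = 0.00337). Of 7 measured genes of red cell precursors 3 fell, 2 without the arrays with muscle transcripts, and 5 changed in the same direction in both strains. Alas2, the erythroid enzyme that starts haem synthesis, read 9.25, 9.80 and 10.02 in C57L/J 12.5 Gy lungs, against 10.84, 11.13 and 11.78 in C57L/J 0 Gy lungs, and 8.91, 8.57 and 7.94 in C57BL/6J 15 Gy lungs, against 11.38, 11.66 and 10.33 in C57BL/6J 0 Gy lungs. Slc4a1, the red cell anion exchanger, changed by -1.67 in C57L/J and -2.39 in C57BL/6J.

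Alveolar epithelial genes did not pass in the mean response. Of 21 type II genes and 19 type I genes 0 passed in the mean response (limma), and at an unadjusted p under 0.05 there were 3 and 5. In either strain alone 0 were called at an unadjusted p under 0.01, and the fit over 12 arrays called 1 type I gene in C57BL/6J. Their medians were 0.02 and -0.11 in C57L/J and -0.00 and -0.20 in C57BL/6J. The C57BL/6J medians were 0.225 and 0.02 with only the 15 Gy array without muscle transcripts. Among 29 genes of ciliated cells 2 rose, Cfap52, of the axoneme, and Tubb4b, a tubulin, beside 1.78% of all genes. The call of Cfap52 (limma adjusted p = 0.0349) was lost when any of 9 single arrays was left out, with p up to 0.0811 without replicate 2 of C57BL/6J 15 Gy. Of 28 NRF2 antioxidant genes 2 rose, beside the same 1.78% of all genes. These were Ephx1, an epoxide hydrolase that p53 also induces, with changes of 1.00 in C57L/J lungs and 1.11 in C57BL/6J lungs, and Gclc, which limits glutathione synthesis, with 0.41 and 0.63. Among 36 genes of matrix and fibrosis Mmp2, a gelatinase, rose by 0.82 and Ccn2, connective tissue growth factor, fell by 0.82 in the mean response, beside 1.78% and 3.41% of all genes.

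Retnla, Gria1 and Auts2 are genes that the study tied to the lethal threshold. It compared 0 with 12.5 Gy in C57L/J and 12.5 with 15 Gy in C57BL/6J. It reported no difference for them from 0 to 12.5 Gy in C57BL/6J. Here C57BL/6J 15 Gy was set against 0 Gy, which is another comparison. In C57L/J the groups compared are the same, and there Gria1 and Auts2 were not called here. The study called both there, from quartile-normalized values with a random variance t test, so its processing differed. It described Gria1 as less conclusive, with a rise in C57L/J and a fall in C57BL/6J at 15 Gy. The lungs used here were among those the genes were chosen on, so their values are no independent evidence. Retnla encodes resistin-like molecule alpha, a secreted protein of alternatively activated macrophages and airway epithelium. It read 13.36, 13.62 and 13.65 in C57L/J 12.5 Gy lungs, against 12.11, 12.37 and 11.77 in C57L/J 0 Gy lungs. It read 14.16, 13.76 and 13.64 in C57BL/6J 15 Gy lungs, against 12.49, 13.04 and 12.40 in C57BL/6J 0 Gy lungs. Irradiated lungs stood above sham lungs without overlap in both strains, the changes were 1.46 in C57L/J lungs and 1.21 in C57BL/6J lungs, and the mean rise was 1.34 ± 0.15 (SE, limma adjusted p = 0.00157). The difference of 0.25 (95% interval -0.44 to 0.94) was not called. Gria1, a subunit of AMPA glutamate receptors, had changes of 0.30 in C57L/J and -0.47 in C57BL/6J, with unadjusted p-values of 0.2 and 0.0154 (limma) and 0.0117 for the difference. Auts2, a gene of neurodevelopment, had changes of -0.30 and -0.43, with an adjusted p of 0.0746 in the mean response (limma), and its sign changed with the choice of probe set.

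**Figure D4:**
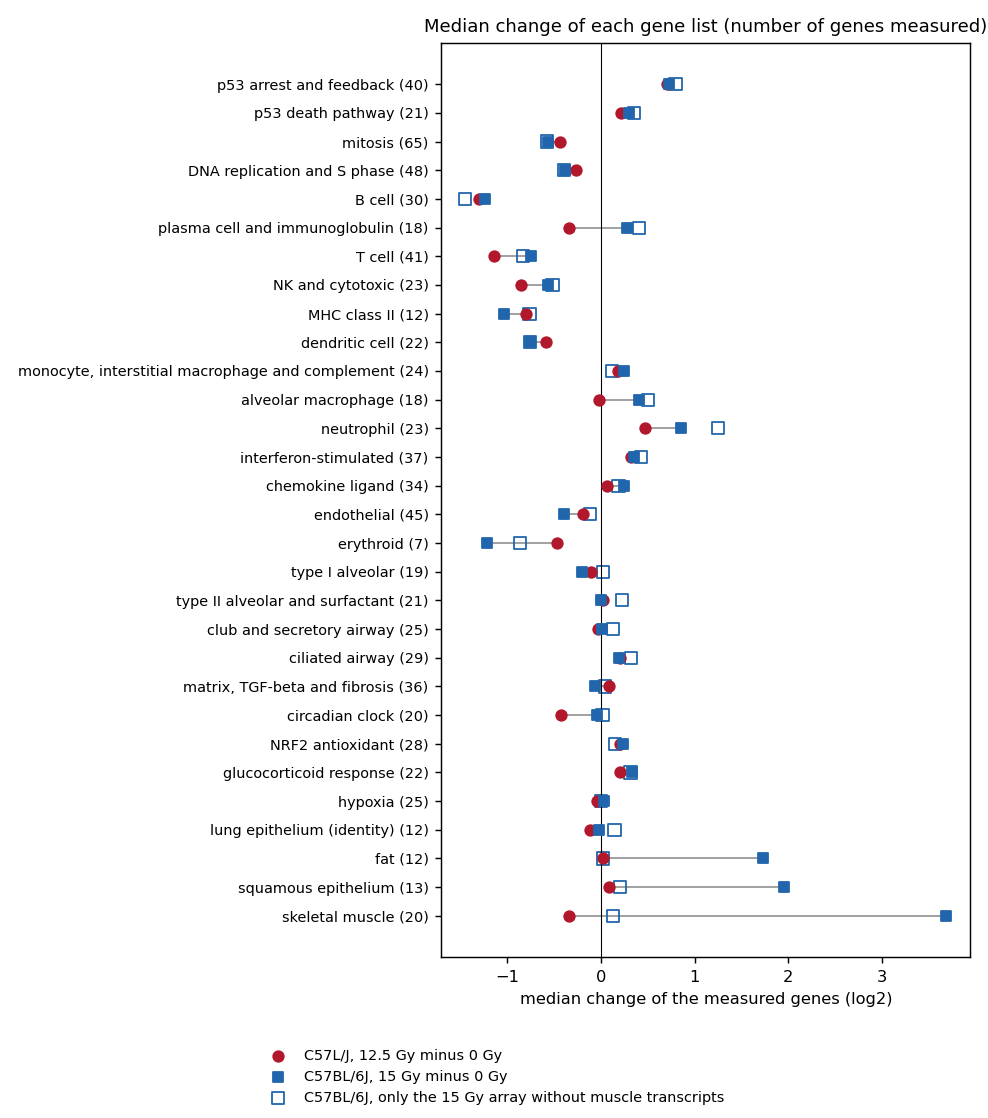
Median log2 change of each gene list in C57L/J (12.5 Gy minus 0 Gy, red circles) and C57BL/6J (15 Gy minus 0 Gy, blue squares), with open squares for C57BL/6J when only the 15 Gy array without muscle transcripts is used; the number of genes measured is in brackets. B cell genes have medians of -1.30 and -1.24 and p53 arrest genes 0.71 and 0.73, while skeletal muscle genes stand at -0.35 in C57L/J and 3.69 in C57BL/6J on all arrays.

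The difference of the responses was tested for each gene. It was called for 256 genes (1.41% of those tested), 106 with a positive difference (0.583%) and 150 with a negative one (0.824%). A positive difference means that the signed log2 change was higher in C57L/J, which includes genes that fell more in C57BL/6J. This split turned to 143 and 91 with quantile normalization and to 183 and 115 with median-centring. In the single response of C57L/J the split was 304 higher and 518 lower, 361 and 455 with quantile normalization and 427 and 379 with median-centring. Of the 256 genes 113 lay below 7 in every group, 209 had responses of opposite sign, all 256 kept their direction and 64 kept the call without the arrays with muscle transcripts. Only Timd2 passed after adjustment (limma), and above a level of 7 the smallest adjusted p was 0.438. The genes named below are those with the largest differences at that level, by unadjusted p, and the list members among them.

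Timd2, which encodes a receptor of the TIM family, read 3.11, 3.24 and 3.28 in C57L/J 12.5 Gy lungs, against 5.33, 5.64 and 6.01 in C57L/J 0 Gy lungs. It read 5.72, 5.72 and 5.83 in C57BL/6J 15 Gy lungs, against 3.56, 4.25 and 3.17 in C57BL/6J 0 Gy lungs. The strains moved in opposite directions without overlap, by -2.45 and 2.10, and the difference was -4.54 (95% interval -5.35 to -3.74, limma adjusted p = 0.00427, 0.292 without the arrays with muscle transcripts). Agtr2, the angiotensin II type 2 receptor gene, changed by -3.29 in C57L/J lungs and 2.44 in C57BL/6J lungs, and Gm30853 by -1.71 and 1.85. All 3 were named after their values were seen. They lay near the background of the array: with intensities floored at 32 in place of 1, the difference became -1.42 for Timd2, -1.04 for Gm30853 and 0 for Agtr2.

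Among called genes with a level of at least 7 the largest differences were those of Jchain and Igkv8-30, which plasma cells transcribe. The study already lists Jchain, as Igj, among genes that changed between 12.5 and 15 Gy in C57BL/6J lungs of this series. Jchain, the joining chain of IgM and IgA, read 10.38, 8.51 and 8.78 in C57L/J 12.5 Gy lungs, against 10.45, 11.60 and 9.61 in C57L/J 0 Gy lungs. It read 11.02, 11.85 and 9.66 in C57BL/6J 15 Gy lungs, against 8.36, 9.75 and 8.35 in C57BL/6J 0 Gy lungs. The groups overlapped in each strain, the changes were -1.33 and 2.02, and the difference was -3.36 (95% interval -5.68 to -1.03, limma unadjusted p = 0.00939). Igkv8-30, a kappa light chain segment whose probes may bind related segments, had changes of -1.92 in C57L/J and 0.84 in C57BL/6J. Of 18 plasma cell genes 3 differed, all with a negative difference (0.824% of all genes), the third being Igkv4-68 (-1.24 and 0.94). Not every immunoglobulin gene diverged. Ighv14-2, a heavy chain segment, read 7.46, 8.43 and 8.33 in C57L/J 12.5 Gy lungs, against 10.05, 10.59 and 10.76 in C57L/J 0 Gy lungs. It read 7.80, 9.30 and 7.91 in C57BL/6J 15 Gy lungs, against 10.47, 10.05 and 10.51 in C57BL/6J 0 Gy lungs. It fell without overlap in both strains, by 2.20 ± 0.29 in the mean response (SE, limma adjusted p = 0.00299), and was among the 12 largest shared falls. In C57L/J 12.5 Gy lungs the highest value of Jchain was that of replicate 1. Its mean of lymph node and spleen stroma genes was 7.08, and its Glycam1 was not high. The highest values of Jchain and Igkv8-30 in C57BL/6J 15 Gy lungs, 11.85 and 12.59, were those of replicate 2, the array with Glycam1. Without it the differences were -2.85 (limma unadjusted p = 0.0241) and -2.21 (limma unadjusted p = 0.0104). Without both arrays with muscle transcripts they were -3.53 for Jchain and -2.77 for Igkv8-30, and that of Igkv4-68 was -2.19. The part of lymph node or muscle tissue in these values was not tested.

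Several genes of T cells and natural killer cells had the larger fall in C57L/J. Nsg2, a neuronal vesicle protein gene that is also transcribed in T cells, read 5.32, 6.06 and 5.03 in C57L/J 12.5 Gy lungs, against 7.62, 7.69 and 7.68 in C57L/J 0 Gy lungs. It read 6.96, 7.50 and 6.91 in C57BL/6J 15 Gy lungs, against 7.39, 7.15 and 7.58 in C57BL/6J 0 Gy lungs. The difference was -1.95 (95% interval -2.76 to -1.13, limma unadjusted p = 0.000353), and -1.78 without the arrays with muscle transcripts (limma unadjusted p = 0.00391). Cd28, the costimulatory receptor, had changes of -1.40 in C57L/J lungs and 0.07 in C57BL/6J lungs, and Cd5, a brake on T cell receptor signals, of -1.60 and -0.16. Single arrays left out brought their unadjusted p-values (limma, 0.007 and 0.00497) up to 0.0189 and 0.0137. Eomes, a transcription factor of natural killer and memory T cells, fell in both strains, by 1.40 in C57L/J and 0.56 in C57BL/6J. Its irradiated values were 6.50 to 6.85 in C57L/J and 7.38 to 7.49 in C57BL/6J, its sham values 7.93 to 8.25 and 7.92 to 8.02. The difference of -0.84 (95% interval -1.22 to -0.47) had an unadjusted p of 0.00058 (limma), and 0.00382 without the arrays with muscle transcripts. Of 41 T cell genes 2 differed at this threshold and of 23 natural killer and cytotoxic genes 1, beside 1.41% of all genes. In the fit without the arrays with muscle transcripts the differences of Cd28 and Cd5 were -1.41 and -1.45 (limma unadjusted p = 0.0235 and 0.0245), 0 T cell genes had a called negative difference and 1 a positive one. When the arrays with Rag1 were left out their p-values were 0.0067 and 0.000841, and that of Eomes was 0.0134.

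Genes of the circadian clock made up another list. Of its 20 genes 6 were called lower in C57L/J and 1 in C57BL/6J, beside 2.85% and 2.22% of all genes. The medians were -0.43 and -0.05, and 2 genes differed, beside 1.41% of all genes. With only the 15 Gy array without muscle transcripts the C57BL/6J median was 0.02. Dbp, a clock output transcription factor, read 11.02, 9.98 and 10.06 in C57L/J 12.5 Gy lungs, against 11.91, 12.13 and 12.29 in C57L/J 0 Gy lungs. It read 11.62, 11.34 and 11.90 in C57BL/6J 15 Gy lungs, against 12.17, 12.11 and 12.09 in C57BL/6J 0 Gy lungs, a difference of -1.25 (95% interval -2.07 to -0.43, limma unadjusted p = 0.00695, 0.0276 without the arrays with muscle transcripts). Bhlhe40, a repressor within the clock, had changes of -0.85 and 0.10. The labels give no time of day, and its part was not tested. Hlf and Tef, relatives of Dbp, fell in the mean response. Hlf had changes of -1.34 in C57L/J lungs and -0.77 in C57BL/6J lungs, and Tef of -0.83 and -0.42.

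Spon2, Rasl11a and Adm were called higher in C57L/J and were not called in C57BL/6J, and their differences were called. Spon2, a secreted matrix protein of innate immunity, read 7.89, 8.79 and 8.77 in C57L/J 12.5 Gy lungs, against 6.94, 6.96 and 6.85 in C57L/J 0 Gy lungs. It read 7.10, 7.49 and 7.32 in C57BL/6J 15 Gy lungs, against 7.24, 7.16 and 7.76 in C57BL/6J 0 Gy lungs, and the difference was 1.65 (95% interval 0.87 to 2.44, limma unadjusted p = 0.00091). Rasl11a, a small GTPase gene, had changes of 1.52 in C57L/J and -0.00 in C57BL/6J (difference by limma, unadjusted p = 0.00104), and Adm, the vasodilator adrenomedullin, of 1.07 and -0.19 (unadjusted p = 0.00173). Among 36 genes of matrix and fibrosis 4 differed, all with a positive difference (0.583% of all genes): Eln, which encodes elastin (0.97 and -0.23), its crosslinker Loxl1 (0.50 and -0.17), the growth factor gene Tgfb3 (0.24 and -0.43) and the collagenase gene Mmp14 (0.50 and -0.09). Without the arrays with muscle transcripts none of these 4 kept an unadjusted p under 0.01 (limma, 0.0188 to 0.0586).

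Other genes had the larger fall in C57BL/6J. Ptgs2, the inducible cyclooxygenase, read 9.11, 9.46 and 9.74 in C57L/J 12.5 Gy lungs, against 9.75, 9.11 and 9.10 in C57L/J 0 Gy lungs. It read 8.28, 8.51 and 8.14 in C57BL/6J 15 Gy lungs, against 9.89, 9.59 and 9.69 in C57BL/6J 0 Gy lungs. The difference was 1.53 (95% interval 0.85 to 2.21, limma unadjusted p = 0.00057). Fos, an immediate early transcription factor, had changes of -0.82 in C57L/J and -2.16 in C57BL/6J. Its irradiated levels were 10.34 ± 0.20 in C57L/J 12.5 Gy and 10.02 ± 0.10 in C57BL/6J 15 Gy lungs, against sham levels of 11.16 ± 0.60 in C57L/J and 12.18 ± 0.37 in C57BL/6J (SD, n = 3). Cdc20, an activator of the anaphase-promoting complex, was similar, with 8.20 ± 0.11 in C57L/J 12.5 Gy and 8.03 ± 0.07 in C57BL/6J 15 Gy lungs, against 8.53 ± 0.22 and 9.38 ± 0.22 at 0 Gy (SD, n = 3). The difference of Cdc20 was 1.02, and -0.03 with the most variable of its probe sets and 0.44 with their mean, neither of them called. For both genes the sham-irradiated lungs of the strains stood further apart than the irradiated lungs. Zfp882, a zinc finger protein gene, had changes of -0.19 and -1.40, and Unc5a, a netrin receptor gene, of 0.23 and -0.85. Igf2bp3, a fetal RNA-binding protein gene, had changes of 0.33 and -1.27, and Nuf2, of the kinetochore, of -0.44 and -1.89. With single arrays left out, the unadjusted p-values of the difference (limma) reached 0.0201 for Fos, 0.0188 for Igf2bp3 and 0.0181 for Nuf2.

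Dapl1, Klk7 and Rdh12, with roles in squamous epithelium, epidermis and retinoid metabolism, had the higher signed log2 change in C57BL/6J. Klk7 had changes of -0.27 in C57L/J lungs and 1.91 in C57BL/6J lungs, and its call was lost when any of 7 single arrays was left out, with unadjusted p-values up to 0.0144 (limma). Dapl1 read 6.98, 8.56 and 9.27 in C57BL/6J 15 Gy lungs, where replicates 2 and 3 carried squamous epithelium genes, and 7.34 to 8.01 in C57BL/6J 0 Gy lungs. Its difference of -2.30 became -1.01 without those arrays (limma unadjusted p = 0.0714). Rdh12 read 7.11, 7.31 and 7.88 in C57BL/6J 15 Gy lungs, against 5.96 to 6.51 in C57BL/6J 0 Gy lungs, and 5.78 to 6.10 in C57L/J 12.5 Gy lungs, against 6.27 to 6.54 in C57L/J 0 Gy lungs, so that the strains moved in opposite directions without overlap, as 0.555% of all genes did. Its difference was -1.69 (95% interval -2.37 to -1.02), and -1.37 when only the 15 Gy array without squamous genes was used (limma unadjusted p = 0.0019). Perp, a p53 target that also builds desmosomes of squamous epithelium, had changes of -0.15 in C57L/J and 1.23 in C57BL/6J. Its difference of -1.39 became -0.87 without the arrays with muscle transcripts (limma unadjusted p = 0.0084 and 0.11). The part of squamous epithelium in these values was not tested. Btg2 and Cd80 were the 2 of 40 p53 arrest and feedback genes that differed, and Btg2, an antiproliferative p53 target, had changes of 0.56 in C57L/J and -0.38 in C57BL/6J. This count stands beside 1.41% of all genes, and without the arrays with muscle transcripts neither was called (limma unadjusted p = 0.0284 for Btg2 and 0.0672 for Cd80).

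A pair of unannotated genes also had the larger log2 change in C57BL/6J. 8430419K02Rik averaged 6.24 ± 0.53 in C57L/J 12.5 Gy lungs, against 5.54 ± 0.37 in C57L/J 0 Gy lungs, and 7.43 ± 0.50 in C57BL/6J 15 Gy lungs, against 4.64 ± 0.18 in C57BL/6J 0 Gy lungs (SD, n = 3). The groups did not overlap in C57BL/6J and overlapped in C57L/J, and the difference of -2.10 (95% interval -3.11 to -1.09, limma unadjusted p = 0.000981) was called with any single array left out. 2310043M15Rik had changes of -0.27 in C57L/J lungs and 1.46 in C57BL/6J lungs, and its call was lost when any of 6 single arrays was left out.

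**Figure D5:**
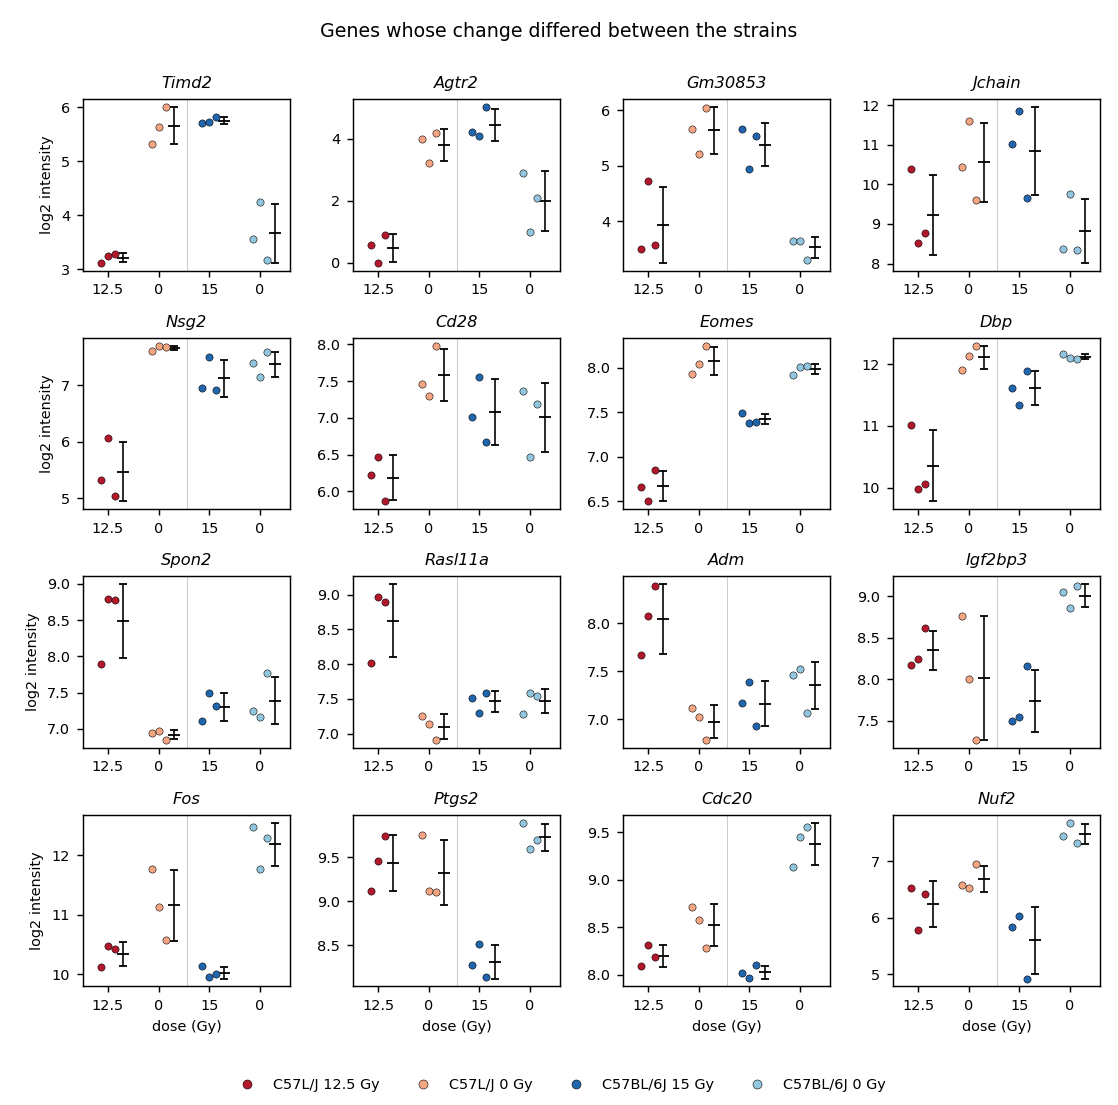
Log2 intensity on each of the 12 arrays for 16 genes whose change differed between the strains, in irradiated and sham-irradiated lungs of C57L/J (12.5 and 0 Gy) and C57BL/6J (15 and 0 Gy); bars give the mean and SD of 3 lungs. Timd2, Agtr2 and Gm30853 moved in opposite directions at low levels, Nsg2, Cd28, Eomes and Dbp had the larger fall in C57L/J, and Fos, Ptgs2 and Nuf2 in C57BL/6J.

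The remaining lungs of both strains show these genes at the other dose, against the same sham lungs, so no test is given. Spon2 stood at 8.48 ± 0.51 at 12.5 Gy and 8.37 ± 0.34 at 15 Gy in C57L/J lungs, and at 7.13 ± 0.29 and 7.30 ± 0.19 in C57BL/6J lungs (SD, n = 3). Adm stood at 8.04 ± 0.36 and 8.02 ± 0.25 in C57L/J and at 7.29 ± 0.52 and 7.16 ± 0.23 in C57BL/6J (SD, n = 3). For both genes the means at both doses were close within a strain. Ptgs2 stood at 9.44 ± 0.32 and 10.26 ± 0.83 in C57L/J and at 8.36 ± 0.25 and 8.31 ± 0.19 in C57BL/6J (SD, n = 3). Timd2 stood at 3.21 ± 0.09 at 12.5 Gy and 4.31 ± 1.27 at 15 Gy in C57L/J and 4.42 ± 0.88 and 5.76 ± 0.06 in C57BL/6J (SD, n = 3). Jchain stood at 9.22 ± 1.01 and 9.44 ± 1.42 in C57L/J and at 8.54 ± 0.70 and 10.85 ± 1.11 in C57BL/6J (SD, n = 3), so that in C57BL/6J the 12.5 Gy lungs were near the sham lungs (8.82 ± 0.81). Nsg2 stood at 5.47 ± 0.53 and 6.94 ± 1.81 in C57L/J, where replicate 3 at 15 Gy carried muscle transcripts, and at 6.90 ± 0.21 and 7.12 ± 0.33 in C57BL/6J (SD, n = 3).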

How the data were processed

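Lung RNA of single mice was hybridised to Affymetrix Mouse Genome 430 2.0 arrays. The deposited intensity values, 1 per probe set, were made by the authors with Affymetrix Expression Console 1.1 (submitters' processing notes) and are linear and scaled to the same 2% trimmed mean on every array. No source used here names the algorithm that summarised the probes. Of 45101 probe sets 34958 had 1 gene symbol in the platform annotation. Intensities were floored at 1 and log2-transformed, and the brightest probe set by its mean stood for each of 18194 genes. The depth of an array is not a count, and 3 arrays per group limit the precision. Between 14.0% and 19.3% of probe sets lay below an intensity of 32, so low levels are close to background.

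limma 3.58.1 in R 4.3.3 was fitted to the 6 arrays of each strain for the single responses, and to all 12 for the mean response and the difference, after a check on simulated data. An unadjusted p under 0.01, the criterion of the study's methods, was used for single responses and the difference, and a Benjamini-Hochberg adjusted p under 0.05 for the mean response. Named were the 12 rises and 12 falls with the largest smaller change among agreement genes, the 10 largest differences of at least 1 log2 unit in each direction that kept that size without the arrays with muscle transcripts, and, where a result turned on them, genes from the 4 members of each list with the largest called mean response and from those of the study. Agtr2, Bhlhe40, Btg2, Cd80, Eln, Glycam1, Gm30853, H2-Aa, H2-Ab1, Igkv4-68, Kif11, Loxl1, Mmp14, Ncaph, Perp, Prc1, Rag1, Tgfb3, Timd2 and Tpx2 were named after their values were seen. The members and the 41 gene lists were chosen with earlier results of these data known. Arrays whose mean of skeletal muscle genes lay over 2 log2 units above the median array were counted as carrying muscle transcripts. Promoter sequences came from RefSeq (GRCm38.p6). Alternatives covered the test, threshold, variance prior, array weights, floor, scaling, low-value filter, probe set, replicate block, muscle arrays and genes, each array left out and, chosen after seeing the data, the arrays with Rag1 left out.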

Additional observations from a re-analysis of the deposited data

Results flagged for a closer look

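Timd2 had opposite responses in the strains and an adjusted p under 0.05 for the difference of -4.54 (limma). Agtr2 (difference -5.74), Gm30853 (-3.56) and Rdh12 (-1.69) had an unadjusted p under 0.01 for the difference, and every irradiated lung of C57L/J lay below its sham lungs while every irradiated lung of C57BL/6J lay above. Over all genes 101 (0.555%) did not overlap in either strain and went opposite ways, 63 of them among the 256 genes of the difference. Timd2, Agtr2 and Gm30853 lay below a log2 intensity of 7 in every group, and Rdh12 reached 7.11 to 7.88 in C57BL/6J 15 Gy lungs.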

How the results depend on the processing

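Of the named gene results, 1407 of 1720 across settings and 1320 of 1596 with 1 array left out kept their direction and side of the threshold. A response of 1 strain cannot change when an array of the other strain is left out, and such cases are counted as kept. With an adjusted p under 0.05, C57L/J had 94 calls, C57BL/6J 12, the difference 1 and both strains 7 in the same direction, against 822, 693, 256 and 227 at an unadjusted p under 0.01. The mean response had 1686 calls at an unadjusted p under 0.01, 408 with the most variable probe set, 377 without the arrays with muscle transcripts and 438 with the muscle score as a covariate, against 945. One fit over 12 arrays gave 1238 calls in C57BL/6J and 361 in both strains, an intensity trend with a robust prior 407 in both, and the most variable probe set 130 in both. The correlation was 0.382 with a floor of 32, 0.548 with the filter on low values and 0.165 with the most variable probe set. Leaving out 1 array of the same strain gave 554 to 699 calls in C57L/J and 437 to 752 in C57BL/6J. The lowest in C57BL/6J were 437 without replicate 2 of its 0 Gy group and 460 without replicate 1. Leaving out any 1 array gave 524 to 983 calls in the mean response (524 without replicate 3 of C57L/J 0 Gy). The difference then had 196 to 448 calls (448 without replicate 1 of C57BL/6J 15 Gy). Both strains shared 144 to 212 (144 without replicate 1 of C57BL/6J 0 Gy), and the correlation ran from 0.159 to 0.215. Without the 3 sham arrays with Rag1 transcripts, chosen after seeing the data, there were 1157 calls in C57BL/6J, 186 in the mean response (104 higher and 82 lower), 480 for the difference and 149 in both strains, and the correlation was 0.128.

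The replicate numbers were not treated as pairs in the main fits. Deviations of same-numbered irradiated and sham arrays had correlations of 0.032, 0.044 and 0.020 in C57L/J and -0.059, -0.065 and 0.013 in C57BL/6J. Between different numbers they ran from -0.045 to 0.0095 in C57L/J and from -0.0399 to 0.105 in C57BL/6J. Values this small cannot settle whether the numbers pair the samples. With the replicate block there were 587 calls in C57L/J, 416 in C57BL/6J, 232 in the mean response, 197 for the difference and 124 in both strains.

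With the most variable probe set, mean changes of Irf4 (0.63), Wdfy4 (0.22), Themis (0.66) and Mbp (0.94, and 0.33 with the mean of probe sets) turned positive, as did the C57BL/6J change of Zfp319 (1.09) and the changes of Auts2 in C57L/J (0.26) and C57BL/6J (0.76). The difference turned to -0.031 for Cdc20 and to -0.50 for Auts2, which was -0.13 with the mean of probe sets and ran from -0.0084 (without replicate 1 of C57BL/6J 0 Gy) to 0.241 with 1 array left out. The difference of Retnla was -0.054 without the arrays with muscle transcripts and -0.050 with the muscle score as a covariate. The causes were not tested. Signal near background limits the genes below a level of 7.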
